A study of Mus musculus with 17 samples.

Results

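Noradrenergic neurons of the locus coeruleus, a small brainstem nucleus, supply most of the noradrenaline of the forebrain, and 9 genes tied to these neurons or to their handling of noradrenaline are described here. The genes were taken by symbol from the expression table of each library: Dbh, Slc6a2, Phox2a, Gal, Nps, Maoa, Tfap2b, Hcrtr1 and Cyb561, all 9 found among the 78298 genes listed. Levels are in TPM, transcript abundances scaled to transcript length and to the same total in every library, so that genes can be compared with each other as levels per length. The read depth behind a TPM value is unknown.

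The 17 libraries were made from poly(A) RNA of tissue labelled as locus coeruleus, within brainstem, of male C57BL/6 mice. Vindeburnol, a compound related to the vinca alkaloids, was given to the mice behind 5 libraries and VB-127, labelled a derivative of vindeburnol, to those behind 6, each at 20 mg/kg in 0.1 ml of water by oral gavage every day for 5 days. Another 6 libraries came from untreated mice, so that no group received gavage without a compound and a compound cannot be told apart from its gavage. Tissue was taken 24 h after treatment. The labels give no age and no allele beyond the strain, and do not state whether libraries come from separate mice, so p-values here refer to spread among samples, which may be technical.

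Noradrenaline is made from tyrosine by tyrosine hydroxylase (Th), aromatic amino acid decarboxylase (Ddc) and, inside the vesicle, dopamine beta-hydroxylase (Dbh). The first pair of enzymes is shared with dopamine neurons, and Ddc and the vesicle transporter Slc18a2 with serotonin neurons too, whereas Dbh and the noradrenaline transporter Slc6a2 mark noradrenergic cells. Phox2a is the homeodomain factor that specifies these cells and acts on Dbh, Tfap2b is a factor of their development, Cyb561 passes electrons into the vesicle for Dbh, and Maoa breaks noradrenaline down. Gal, the precursor of galanin, is made by many locus coeruleus neurons, Nps, the precursor of neuropeptide S, by a small cell group beside the nucleus, and Hcrtr1 is the receptor through which orexin excites it.

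The defining markers did not uniformly bear out the label of the tissue. Dbh reached 1 TPM in 9 of the 17 libraries and was listed at 0 in 3, Slc6a2 was listed at 0 in 4 and Phox2a at 0 in 11. In bulk tissue, fewer noradrenergic cells and less RNA per cell cannot be told apart. Untreated replicates 1 and 6 stood apart from the other 15 libraries, with Dbh at 18.9 and 12.3 TPM against at most 2.57 TPM elsewhere, and results that rest on them are given with and without them. Across the series, 21016 to 26993 genes were above 0 in a library, and the short neuronal RNA Bc1 took 16.1% to 35.3% of all TPM.

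The 9 genes spanned a wide range of levels. Their medians over the 17 libraries were 38.4 TPM for Cyb561, 20.9 for Maoa, 9.49 for Hcrtr1, 5.44 for Tfap2b, 2.22 for Gal, 1.08 for Dbh, 0.300 for Slc6a2, 0.212 for Nps and 0 for Phox2a. Cyb561 lay above Maoa and Maoa above Hcrtr1 in all 17 libraries, while the ranges of Hcrtr1 and Tfap2b, of Tfap2b and Gal, and of all lower neighbours overlapped. Spread between libraries was larger at lower levels: the SD was 8.56% of the mean for Cyb561, 14.5% for Maoa and 18.3% for Hcrtr1, 51.5% for Tfap2b and 67.4% for Gal, and over 100% for the remaining genes, up to 227% for Slc6a2. As a description, the genes form a low and uneven set (Dbh, Slc6a2, Phox2a, Nps and, less so, Gal), an even set (Maoa, Hcrtr1, Cyb561) and Tfap2b alone.

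Stretches of 250 bases just upstream of the transcription start were at hand for 7 of the 9 genes (RefSeq, build GRCm38.p6). They were searched for ATTA and its reverse complement TAAT, the core letters bound by homeodomain factors such as Phox2a, counted on either strand. Dbh, Nps and Gal are shown because their levels varied together over the 17 libraries by Pearson's r while their windows differed in these letters. By Spearman's rho none of their pairs passed. Without untreated replicates 1 and 6, r was 0.42 for Dbh with Gal (permutation adjusted p = 0.295) and 0.39 for Gal with Nps (permutation adjusted p = 0.336). The letters are in capitals, 5′ to 3′ on the gene's strand. The windows lie at chr2:27165257-27165506 on the plus strand for Dbh, chr7:135268369-135268618 on the plus strand for Nps and chr19:3414545-3414794 on the minus strand for Gal.
Dbh: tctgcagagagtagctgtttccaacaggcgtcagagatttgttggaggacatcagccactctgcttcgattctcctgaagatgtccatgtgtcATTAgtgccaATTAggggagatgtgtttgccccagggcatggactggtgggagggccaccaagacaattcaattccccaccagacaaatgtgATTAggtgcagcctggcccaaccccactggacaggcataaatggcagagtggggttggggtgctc
Nps: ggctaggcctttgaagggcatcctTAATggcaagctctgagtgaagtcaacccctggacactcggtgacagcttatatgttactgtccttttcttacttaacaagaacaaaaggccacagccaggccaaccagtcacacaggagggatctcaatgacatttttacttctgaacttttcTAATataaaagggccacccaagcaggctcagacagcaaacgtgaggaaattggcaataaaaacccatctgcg
Gal: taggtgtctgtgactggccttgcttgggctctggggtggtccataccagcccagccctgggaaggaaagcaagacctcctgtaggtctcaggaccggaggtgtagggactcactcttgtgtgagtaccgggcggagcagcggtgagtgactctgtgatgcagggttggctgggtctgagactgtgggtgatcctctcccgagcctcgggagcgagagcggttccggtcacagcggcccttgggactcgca
The Dbh window held 3 matches, beginning at -157, -147 and -65 from the transcription start, and the Nps window held 2, at -226 and -72. Gal, Phox2a and Maoa held 0, Tfap2b held 6, of which those at -23, -19 and -17 overlap or adjoin, and Hcrtr1 held 0, 0 and 1 in its 3 listed start sites. Such short letters are common: of 32851 windows of the same length, 54.9% held at least 1, 30.8% at least 2, 17.3% at least 3 and 3.26% at least 6. The paired form, TAAT followed 3 bases later by ATTA (0.463% of windows), and the cyclic AMP response element TGACGTCA (1.55%) matched in none of the members' windows. A match describes letters and not a bound site.

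Dbh, the last enzyme of noradrenaline synthesis, was at 0, 0.0631, 0.0469, 1.72 and 0.228 TPM in the 5 vindeburnol libraries. In the 6 VB-127 libraries it was at 0 at the lowest, 0.868 at the median and 2.36 TPM at the highest, and in the 6 untreated libraries at 0.290, 1.90 and 18.9 TPM in the same order. The groups overlapped, although 4 of 5 vindeburnol libraries lay below the lowest untreated library. Dbh averaged 0.411 ± 0.736 TPM with vindeburnol (SD, n = 5), 0.930 ± 0.914 TPM with VB-127 (SD, n = 6) and 6.08 ± 7.70 TPM in untreated tissue (SD, n = 6).

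Slc6a2, which takes noradrenaline back up, showed the same layout at lower levels. It was at 0, 0.0511, 0, 0.350 and 0.0699 TPM with vindeburnol, at 0 to 0.929 TPM with a median of 0.287 with VB-127, and at 0.0294 to 8.94 TPM with a median of 0.628 in untreated libraries. All vindeburnol and VB-127 libraries lay below the untreated mean of 2.45 TPM, which untreated replicates 1 (8.94 TPM) and 6 (4.15 TPM) set. The Dbh level divided by the Slc6a2 level was 2.11 in untreated replicate 1 and 2.96 in untreated replicate 6, within the range of 1.23 to 9.86 of the 13 libraries in which Slc6a2 was above 0. Phox2a was above 0 in 1 vindeburnol library (0.0419 TPM), 2 VB-127 libraries (0.231 and 0.264 TPM) and 3 untreated libraries (1.26, 0.822 and 0.104 TPM), so that its values are too sparse for more than this description.

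Both neuropeptide precursors were highest in the same pair of untreated libraries. Gal was at 1.67, 3.53, 1.13, 2.13 and 1.18 TPM with vindeburnol, at 0.727 to 3.56 TPM with a median of 2.08 with VB-127, and at 1.99 to 7.67 TPM with a median of 3.41 in untreated libraries. Untreated replicates 1 (7.67 TPM) and 6 (7.53 TPM) were high, and the other 15 libraries of all 3 groups lay within 0.727 to 3.56 TPM. Nps was above 0 in 1 of 5 vindeburnol libraries (0.173 TPM), in 4 of 6 VB-127 libraries (up to 1.51 TPM, median 0.217) and in 5 of 6 untreated libraries (up to 4.03 TPM, median 1.56). Untreated replicate 2 was listed at 0 for Nps, so the groups overlapped here as well.

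Tfap2b ran the other way. It was at 8.88, 10.1, 5.14, 7.19 and 4.11 TPM with vindeburnol, all 5 above the untreated mean of 4.06 TPM, at 2.26 to 8.12 TPM with a median of 5.69 with VB-127, and at 0.878 to 8.48 TPM with a median of 4.23 in untreated libraries. Its lowest values, 0.878 and 1.10 TPM, were those of untreated replicates 4 and 6, while untreated replicate 1, the highest in Dbh, was at 5.44 TPM, close to the Tfap2b median.

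The genes of vesicle chemistry, breakdown and orexin reception were even across libraries. Maoa averaged 19.6 ± 3.43 TPM with vindeburnol (n = 5), 20.8 ± 3.01 with VB-127 (n = 6) and 21.5 ± 2.89 in untreated tissue (n = 6; SD throughout). Cyb561 averaged 38.4 ± 3.37, 38.2 ± 2.37 and 40.9 ± 3.97 TPM in the same groups. Hcrtr1 averaged 8.54 ± 2.16, 9.89 ± 0.361 and 8.73 ± 1.94 TPM; its 6 VB-127 libraries lay within 9.42 to 10.2 TPM, all above the untreated mean, yet inside the untreated range of 6.51 to 11.6 TPM.

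**Figure D1:**
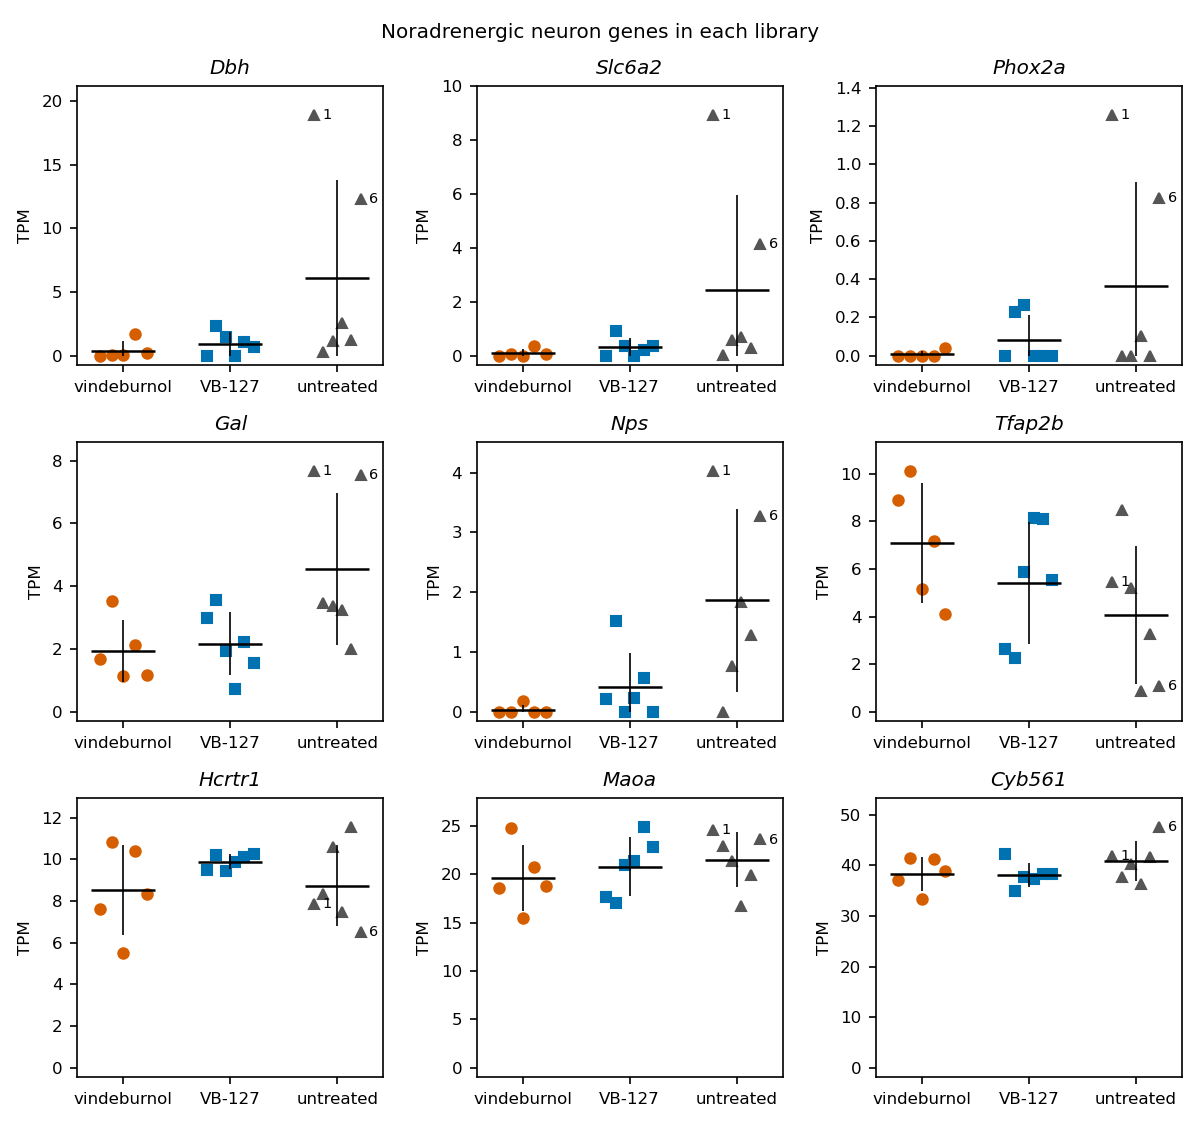
TPM (vertical axes, linear, from 0) of the 9 genes in each library, with vindeburnol as circles, VB-127 as squares and untreated as triangles. Horizontal lines are group means and vertical lines 1 SD either side, stopped at 0; untreated replicates 1 and 6 are numbered and are the highest points for Dbh, Slc6a2, Phox2a, Gal and Nps, but not for Tfap2b, Hcrtr1 or Maoa.

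Vindeburnol was compared with untreated tissue on the log2(TPM + 1) scale, on which folds of low genes are understated. Of the 9 genes, 7 reached 1 TPM in at least 5 libraries and entered a limma fit of 16153 genes; Slc6a2 and Phox2a did not and were taken from the same fit of the 37295 genes above 0 in any library. None of the 9 was called at a Benjamini-Hochberg adjusted p under 0.05, and neither was any other gene in either fit (0% of genes called in both). Among the 7, Nps, Dbh and Gal were lower and Tfap2b higher at an unadjusted p under 0.05, where 1.22% of all genes tested were lower and 6.95% higher (8.17% in either direction). In value, 6 of the 7 were lower in vindeburnol tissue, against 30.3% of all genes tested. The median difference was -0.13 against 0.08 over all genes as deposited. After median-ratio scaling, which divides each library by 1 factor, the all-gene median was 0.003, so the 30.3% belongs to the deposited scale. Dbh, Gal and Nps varied together between libraries, so the 6 are not independent counts. No member had groups that did not overlap, against 0.52% of genes.

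Nps differed by -1.28 ± 0.331 (SE; 95% interval -1.97 to -0.59; limma adjusted p = 0.425). It reached 1 TPM in 0 vindeburnol, 1 VB-127 and 4 untreated libraries, so it entered the fit through the untreated group, where it is high. Dbh reached 1 TPM in 1 vindeburnol, 3 VB-127 and 5 untreated libraries, so it too passed only with that group. The place of both among the lower members follows in part from the filter. Gal differed by -0.87 ± 0.288 (interval -1.47 to -0.27; limma adjusted p = 0.507). Dbh differed by -1.71 ± 0.609 (interval -2.999 to -0.43, limma adjusted p = 0.516) and Slc6a2 by -1.13 ± 0.449 (interval -2.08 to -0.18, limma adjusted p = 0.805). Slc6a2 had an unadjusted limma p of 0.0219 in the unfiltered fit. The share of all genes under 0.05 in that fit is not given here. Without untreated replicates 1 and 6, the difference was -0.75 for Dbh, -0.34 for Slc6a2, -0.02 for Phox2a, -0.49 for Gal and -0.83 for Nps. All 5 vindeburnol libraries lay below the mean of all 6 untreated libraries for each of these genes, a mean that the 2 high libraries raise. Tfap2b differed by 0.85 ± 0.396 (interval 0.02 to 1.68; limma adjusted p = 0.605), and by 0.74 without those libraries. Phox2a (-0.35), Maoa (-0.13), Cyb561 (-0.09) and Hcrtr1 (-0.04) had intervals that span 0, from -0.40 to 0.14 for Maoa, -0.27 to 0.09 for Cyb561 and -0.36 to 0.29 for Hcrtr1.

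VB-127 was set against the same 6 untreated libraries, so that its differences share their values with those of vindeburnol. None of the 9 genes was called, against 0.00619% of genes (1 of 16153) in the filtered fit and 0% in the unfiltered fit. Nps, Gal and Dbh were again lower at an unadjusted p under 0.05, and no member was higher. Of all genes, 0.532% were lower and 9.67% higher at that threshold (10.2% in either direction). Nps and Dbh passed the filter only with the untreated libraries, where they are high. Their place among the lower members follows in part from the filter here as well. In value, 5 of the 7 were lower, against 20.6% of all genes, with a median of -0.09 against 0.11 over all genes as deposited. The all-gene median was 0.008 after median-ratio scaling, so the 20.6% too belongs to the deposited scale. No member had groups that did not overlap, against 0.669% of genes.

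Nps differed by -0.90 ± 0.315 (SE; interval -1.56 to -0.25; limma adjusted p = 0.461) between VB-127 and untreated tissue. Gal differed by -0.76 ± 0.275 (interval -1.34 to -0.19; limma adjusted p = 0.468) and Dbh by -1.28 ± 0.580 (interval -2.51 to -0.06; limma adjusted p = 0.483). Slc6a2 (-0.90; interval -1.80 to 0.00324) and Phox2a (-0.26) did not pass even unadjusted. Without untreated replicates 1 and 6 the differences were -0.32 for Dbh, -0.10 for Slc6a2, 0.07 for Phox2a, -0.39 for Gal and -0.46 for Nps, so Phox2a changed sign. Tfap2b (0.46), Hcrtr1 (0.18), Maoa (-0.05) and Cyb561 (-0.09) had intervals that span 0.

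Of all genes with an unadjusted p under 0.05, 85.1% were higher with vindeburnol and 94.8% with VB-127 as deposited, against 52.0% and 52.5% after median-ratio scaling, whose shift of the all-gene median was -0.08 for vindeburnol and -0.11 for VB-127. Under that scaling Dbh was at -1.76 with vindeburnol and -1.33 with VB-127, Hcrtr1 at 0.07 with VB-127 (0.18 as deposited) and Maoa at -0.17 with VB-127 (-0.05 as deposited). Cyb561 was at -0.17 (SE 0.073, limma adjusted p = 0.521) with vindeburnol and -0.22 (SE 0.0696, limma adjusted p = 0.544) with VB-127. Maoa was at -0.21 (SE 0.0853, limma adjusted p = 0.517) with vindeburnol. As deposited the same differences were smaller, at -0.09, -0.09 and -0.13, and none was called on either scale. Signs of the members were kept, as a shift of that size could turn few of them.

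**Figure D2:**
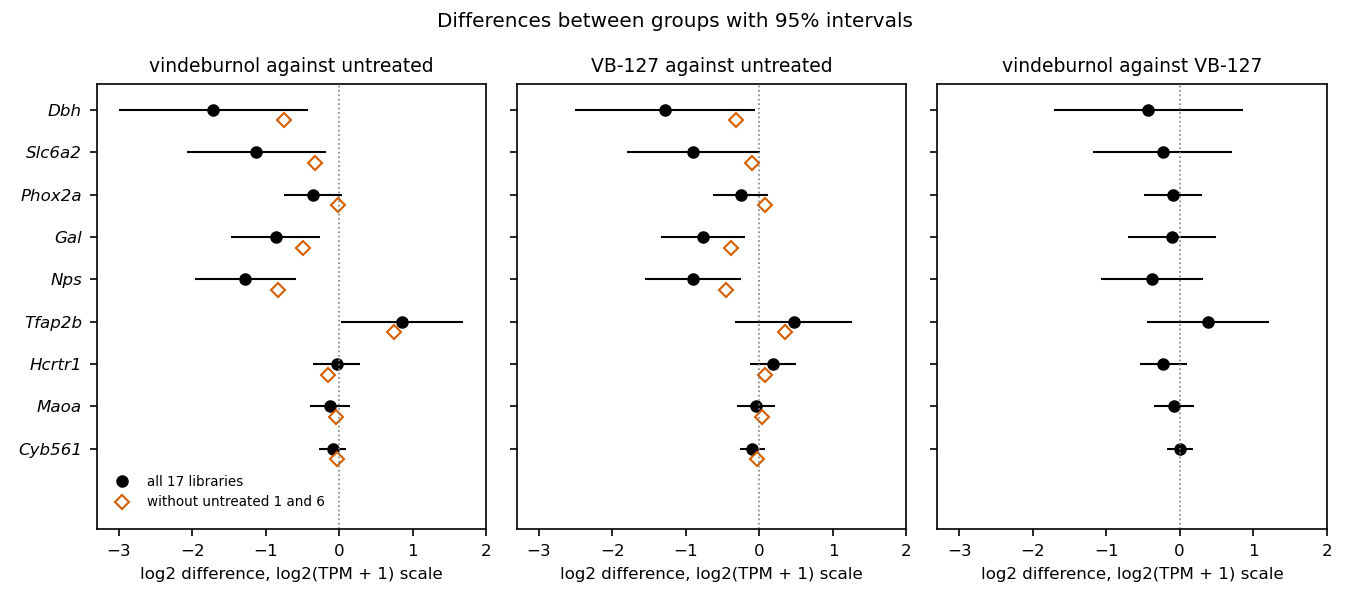
Difference of each gene on the log2(TPM + 1) scale (horizontal axes) for vindeburnol against untreated, VB-127 against untreated and vindeburnol against VB-127. Filled points are limma estimates from 17 libraries with 95% intervals. Open diamonds, drawn only for the comparisons with untreated tissue, are the estimates without untreated replicates 1 and 6. The diamonds lie closer to 0 for Dbh, Slc6a2, Phox2a, Gal and Nps.

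Vindeburnol and its derivative were given at the same dose and days, and 9 genes were compared between them in 1 pair of compounds. No member was called, nor was any gene (0% in both fits), and none of the 7 tested members had an unadjusted p under 0.05, where 3.38% of genes did (2.49% lower and 0.891% higher with vindeburnol). No member had groups that did not overlap, against 0.39% of genes. Dbh differed by -0.43 (vindeburnol minus VB-127; interval -1.72 to 0.86), Nps by -0.38 (-1.07 to 0.31), Slc6a2 by -0.23 (-1.18 to 0.71) and Tfap2b by 0.39 (-0.44 to 1.22). These intervals leave room for differences over 1 log2 unit in Dbh, Slc6a2, Nps and Tfap2b, so they do not show that the compounds acted alike. All 9 had a limma adjusted p of at least 0.9999. The intervals were narrower for Phox2a (-0.09; -0.49 to 0.30), Gal (-0.10; -0.70 to 0.50), Hcrtr1 (-0.22; -0.54 to 0.10), Maoa (-0.08; -0.35 to 0.19) and Cyb561 (0.01; -0.18 to 0.19). In value 5 of the 7 were lower with vindeburnol, against 61.1% of all genes. The all-gene median was -0.03 as deposited and 0.001 after median-ratio scaling.

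The other genes of noradrenaline handling were taken from a list of 44, of which 33 were tested. None was called in any comparison. At an unadjusted p under 0.05, 2 were higher and 2 lower with vindeburnol than in untreated tissue, 1 was higher and 0 lower with VB-127, and 1 was higher and 1 lower with vindeburnol than with VB-127. Of all genes tested, 6.95% were higher and 1.22% lower in the first comparison, 9.67% and 0.532% in the second, and 0.891% and 2.49% in the last. The smallest p values for vindeburnol against untreated tissue were those of Aldh2, an aldehyde dehydrogenase downstream of monoamine oxidase (0.25; limma adjusted p = 0.425), and of Spr (0.20; limma adjusted p = 0.534) and Pts (-0.32; limma adjusted p = 0.541), which make the cofactor tetrahydrobiopterin. Those for VB-127 were Qdpr, which recycles the cofactor (0.20; limma adjusted p = 0.478), Gata3, a transcription factor of noradrenergic development (0.32; limma adjusted p = 0.532), and Spr (0.12; limma adjusted p = 0.568). Between the compounds they were Qdpr (-0.31), Aldh2 (0.17) and Pts (-0.23), each at an adjusted p of 1.

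Slc18a2 and Th, shared with other monoamine neurons, were above Dbh in level in 17 and 16 of the 17 libraries. In untreated replicate 1, Th (17.8 TPM) was below Dbh (18.9 TPM) and Slc18a2 was at 26.0 TPM. In rats, vindeburnol is known for raising tyrosine hydroxylase in the locus coeruleus. Here Th was measured in mice, as RNA of bulk tissue, and dopamine neurons share it. It was highest (154 TPM) in VB-127 replicate 1, which also had the most Slc6a3, the dopamine transporter (124 TPM). Its level thus cannot be read as that of locus coeruleus cells. Th differed by -0.16 (SE 0.464, interval -1.15 to 0.84, limma adjusted p = 0.956) between vindeburnol and untreated tissue. Between VB-127 and untreated tissue it differed by 0.31 (SE 0.443, interval -0.63 to 1.26, limma adjusted p = 0.798). Both intervals were wide enough to hold a change of either sign. Slc18a2 differed by -0.66 (limma adjusted p = 0.604) with vindeburnol and -0.09 (limma adjusted p = 0.912) with VB-127. Th averaged 61.4 ± 28.9 TPM with vindeburnol (n = 5), 85.3 ± 39.4 with VB-127 (n = 6) and 71.1 ± 32.1 in untreated tissue (n = 6; SD throughout), and untreated replicate 1, with the most Dbh, had the least Th of the 17 libraries. Hand2, a factor of peripheral noradrenergic neurons, was listed at 0 in all 17 libraries, and Pnmt, which turns noradrenaline into adrenaline, at 0 in 15.

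Over 17 libraries, Dbh followed Slc6a2 with Pearson r = 0.96 (permutation adjusted p = 0.00018) and Spearman rho = 0.94 (permutation adjusted p = 0.00036), adjusted over the 36 pairs of members. Without untreated replicates 1 and 6, which are also the pair farthest from the Dbh median, r was 0.93 (permutation adjusted p = 0.00072) and rho 0.91 (permutation adjusted p = 0.00108). As deviations from group means, r was 0.95. The pair thus varied together within groups and outside the 2 highest libraries. Reads were not used here, so the counting error of these low values is unknown.

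The relations of Dbh with Phox2a, Nps and Gal were weaker without those 2 libraries. Phox2a was listed at 0 in 11 of the 17 libraries, so its relations rest on few values. With Phox2a, r was 0.91 (permutation adjusted p = 0.00063) and rho 0.72 (permutation adjusted p = 0.0286). Without the 2 libraries, r was 0.58 (permutation adjusted p = 0.0558) and rho 0.56 (permutation adjusted p = 0.24). With Nps, r was 0.87 (permutation adjusted p = 0.00063) and rho 0.59 (permutation adjusted p = 0.0689). Without them, r was 0.66 (permutation adjusted p = 0.0457) and rho 0.40 (permutation adjusted p = 0.348). The same r had a permutation adjusted p of 0.0685 when each gene's 2 farthest libraries were left out, so whether it passes depends on the adjustment. With Gal, r was 0.78 (permutation adjusted p = 0.00185) and rho 0.61 (permutation adjusted p = 0.0656), and r was 0.42 without them (permutation adjusted p = 0.295), so this relation no longer held. Untreated replicates 1 and 6 held 70.7% of the summed Dbh level of all libraries, 77.0% of that of Slc6a2, 76.4% of Phox2a, 52.6% of Nps and 30.5% of Gal, where an even share would be 11.8%. Their shares were 13.7% for Maoa, 13.4% for Cyb561, 9.32% for Hcrtr1 and 7.09% for Tfap2b.

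Among all 36 pairs, 13 passed by Pearson's r and 3 by Spearman's rho at a permutation adjusted p under 0.05, and 7 and 1 without untreated replicates 1 and 6. The count by rho depended on scaling and on single libraries: it was 16 after median-ratio scaling, 11 after rescaling without Bc1, and 1 to 11 when 1 library was left out, with 11 without VB-127 replicate 1, 9 without VB-127 replicate 3 and 8 without vindeburnol replicate 4. The 10 pairs among Dbh, Slc6a2, Phox2a, Gal and Nps made up most of the 13. Nps and Tfap2b were inversely related, with r = -0.64 (permutation adjusted p = 0.0213) and rho = -0.64 (permutation adjusted p = 0.0656), and r = -0.74 without the 2 libraries (permutation adjusted p = 0.0276), but -0.53 without untreated replicate 6 alone (permutation adjusted p = 0.0901) and -0.50 as deviations from group means (permutation adjusted p = 0.108). Gal with Cyb561 (r = 0.58, rho = 0.42) and Maoa with Cyb561 (r = 0.57, rho = 0.50) passed by r alone, each at a permutation adjusted p of 0.0448. Without untreated replicates 1 and 6, r was 0.26 for Gal with Cyb561 (permutation adjusted p = 0.499) and 0.49 for Maoa with Cyb561 (permutation adjusted p = 0.184), and as deviations from group means 0.47 (permutation adjusted p = 0.14) and 0.56 (permutation adjusted p = 0.0694), so neither passed. Dbh had r = 0.32 with Maoa, 0.47 with Cyb561, -0.21 with Hcrtr1 and -0.47 with Tfap2b, and none of these passed. In the 15 libraries Hcrtr1 with Cyb561 (r = 0.71, permutation adjusted p = 0.0276), Maoa with Tfap2b (r = 0.68, permutation adjusted p = 0.0316) and Maoa with Hcrtr1 (r = 0.63, permutation adjusted p = 0.0482) passed by r alone. Their rho there had a permutation adjusted p of 0.11, 0.107 and 0.273. Over 17 libraries their r was 0.19, 0.43 and 0.35, and none passed.

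**Figure D3:**
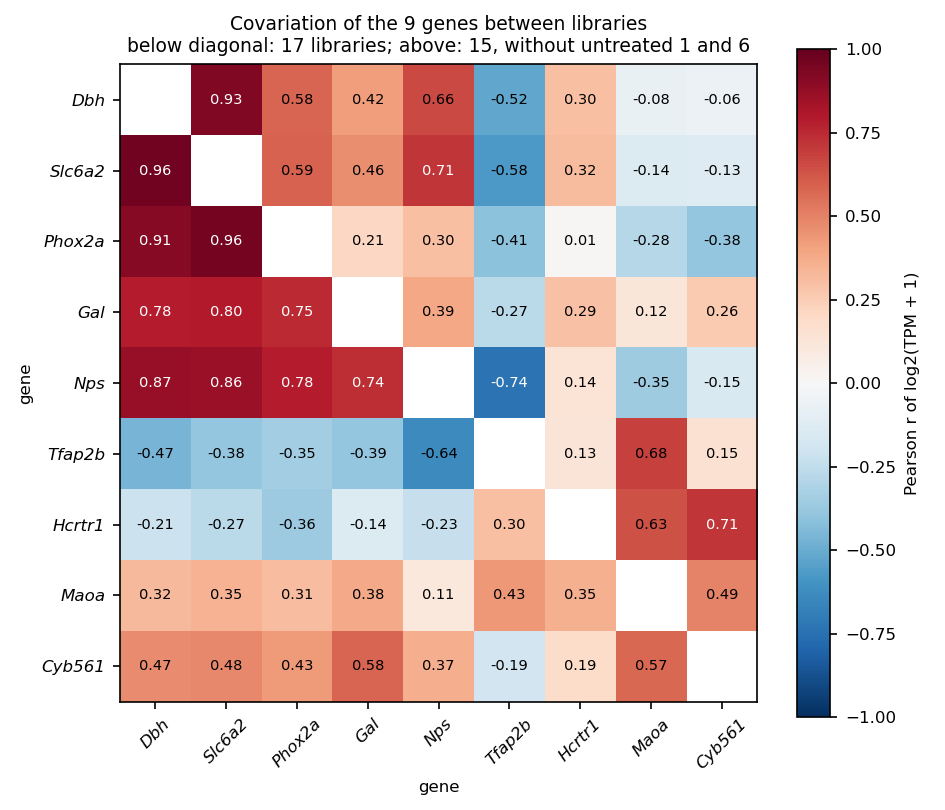
Pearson r of log2(TPM + 1) for each pair of the 9 genes, over 17 libraries below the diagonal and over the 15 without untreated replicates 1 and 6 above it. The block of Dbh, Slc6a2, Phox2a, Gal and Nps runs from 0.74 to 0.96 below the diagonal, while above it the same block runs from 0.21 (Phox2a with Gal) to 0.93 (Dbh with Slc6a2).

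The locus coeruleus borders serotonergic, cholinergic and, further forward, dopaminergic cell groups, and the marker genes of these neurons varied widely between the libraries. Tph2, the serotonin-synthesising enzyme of the raphe, ran from 1.08 TPM in VB-127 replicate 1 to 129 TPM in untreated replicate 6. Slc6a3, the dopamine transporter, ran from 1.04 TPM in untreated replicate 1 to 124 TPM in VB-127 replicate 1, and Chat, which makes acetylcholine, from 1.08 TPM in vindeburnol replicate 3 to 9.71 TPM in untreated replicate 6. Tph2 and Chat averaged 48.3 ± 35.8 and 2.69 ± 1.77 TPM with vindeburnol (n = 5), 58.7 ± 40.0 and 2.96 ± 1.17 with VB-127 (n = 6), and 81.1 ± 33.2 and 5.98 ± 2.11 in untreated tissue (n = 6; SD throughout). Over whole marker lists the summed TPM of 5 serotonergic genes was 17.9 to 154 with vindeburnol, 7.34 to 167 with VB-127 and 64.3 to 214 in untreated libraries, and that of 5 cholinergic genes 14.1 to 33.8, 14.8 to 32.4 and 18.2 to 63.1. The sum of 6 dopaminergic genes was 203 to 359 with vindeburnol, 239 to 529 with VB-127 and 199 to 449.7 in untreated libraries. Aldh1a1 alone, 1 of the 6, was at 142 to 279 TPM over the 17 libraries. The sum therefore did not fall below 199 TPM in untreated libraries, although Slc6a3 was at 1.04 TPM in untreated replicate 1. The serotonergic and cholinergic lists had their highest sums in untreated libraries, as Dbh did, and the dopaminergic list in a VB-127 library; their part in the differences of Dbh, Slc6a2, Gal and Nps was not tested.

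Dbh varied with some of these markers. With Chat, r was 0.75 (permutation adjusted p = 0.0108, over 36 relations of the 9 genes with 4 markers) and rho 0.74 (permutation adjusted p = 0.0115), and r was 0.62 without untreated replicates 1 and 6 (permutation adjusted p = 0.167). The relation with Chat also missed the threshold without VB-127 replicate 1 (permutation adjusted p = 0.0504), VB-127 replicate 4 (permutation adjusted p = 0.0526) or untreated replicate 6 (permutation adjusted p = 0.0904) alone. With Tph2, r was 0.56 (permutation adjusted p = 0.11) and rho 0.82 (permutation adjusted p = 0.00234), and r was 0.71 without them (permutation adjusted p = 0.0425). The 3 libraries in which Dbh was listed at 0 were among the 4 with the least Tph2. With Slc6a3, r was -0.56 and rho -0.34, and r was -0.02 without the 2 libraries, and with Th r was -0.35 and 0.09 in the same order. As deviations from group means, Dbh had r = 0.58 with Chat and 0.48 with Tph2, and none of the 36 relations passed.

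**Figure D4:**
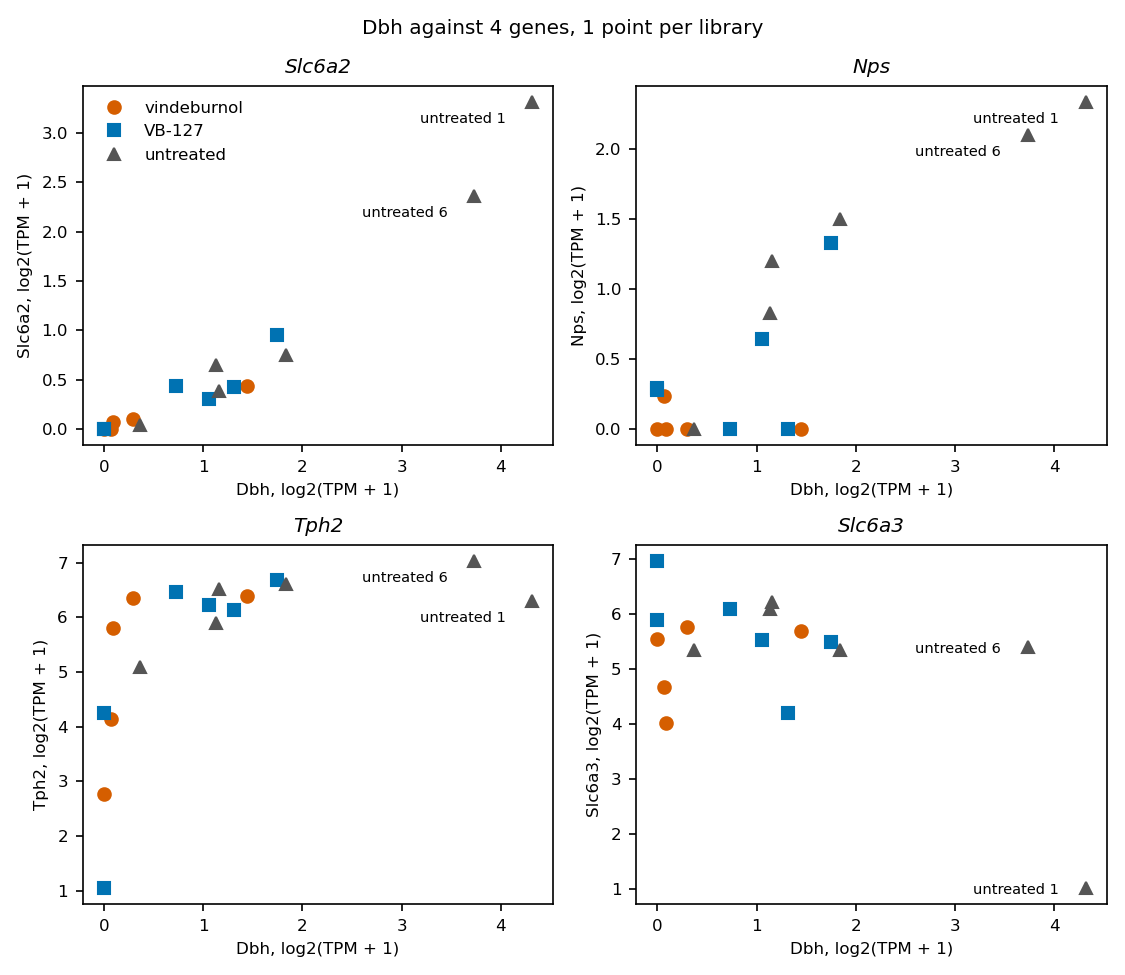
Dbh (horizontal axes) against Slc6a2, Nps, Tph2 and Slc6a3 (vertical axes), all as log2(TPM + 1), with 1 point per library and groups marked as circles (vindeburnol), squares (VB-127) and triangles (untreated). Slc6a2 is higher in most libraries with more Dbh, Nps is at 0 in several libraries with Dbh, Tph2 is low where Dbh is at 0, and untreated replicate 1 alone combines high Dbh with almost no Slc6a3.

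The genes most like Dbh over the 17 libraries, of 13262 named genes with a mean of at least 1 TPM, were looked up as a description. In order of r they were Slc5a7 (0.83), Nxph4 (0.77), Cd24a (0.76), Cited1 (0.75), Chat (0.75), Cyp26b1 (0.75), Slc18a3 (0.74) and Dao (0.74). Slc5a7, Chat and Slc18a3 take up choline, make acetylcholine and load it into vesicles. Without untreated replicates 1 and 6, r was 0.90 for Dao, 0.85 for Slc18a3 and 0.77 for Slc5a7, and 0.60 for Cd24a, the lowest of the 8. All 8 were below the value of Slc6a2, a member. For Gal the nearest were Bex4 (0.81), Nhlh2 (0.75), Birc5 (0.69) and Gabrq (0.69), of which Gabrq was at 0.29 without the 2 libraries. For Tfap2b they were Nptx1 (0.95), Cdh4 (0.95), Camk2b (0.94) and Lmo3 (0.94), at 0.93 to 0.98 without them. Camk2b, a kinase subunit of neurons, was at 117 to 222 TPM and Nptx1, a synaptic pentraxin, at 16.4 to 57.3 TPM in the 17 libraries, so the Tfap2b pattern was shared with far more abundant genes. All 17 points share the same TPM totals, in which Bc1 takes an uneven part.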

How the data were processed

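Libraries of poly(A) RNA came from a directional kit (per the labels' protocols), and use of strand in counting is not given here. STAR, Salmon and the build GRCm39 (mm39) are named, without versions, in the submitters' processing notes. The authors deposited TPM per gene, and these were read as they stand. A gene was tested at 1 TPM or more in at least 5 libraries; a pseudocount of 1 was added before log2. A linear model over the 3 groups was fitted in limma 3.58.1 (R 4.3.3, trend and robust moderation), two-sided, with Benjamini-Hochberg adjustment over all genes tested. It was tested on simulated data with normal errors. The genes changed there had higher levels than Dbh, Slc6a2, Phox2a, Nps and Gal, so recovery at such low levels was not tested. Correlations used 100000 permutations (numpy 2.4.6, with ranks from scipy 1.17.1), so the smallest p is 1e-05. Depth is unknown, so precision rests on the spread between libraries. Members, lists, alternatives and the rule for named genes (all members, called pathway genes and the 3 of smallest p per comparison, and the most alike genes) were chosen with earlier results of these data known. Alternatives varied pseudocount, filter, scaling, moderation, weights, block and libraries. Promoter windows came from RefSeq on GRCm38.p6, another build than the files'. Th, Ddc, Slc18a2, Pnmt and Hand2 are named besides, chosen after their values were seen. Another listed gene is not reported here.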

Additional observations from a re-analysis of the deposited data

Results flagged for a closer look

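In 27 combinations of a gene and a group, the highest or lowest library was set against its neighbour with Dixon's 95% limit, which chance passes in about 1 of 20; 5 passed. Vindeburnol replicate 4 stood apart for Dbh (1.72 TPM, the next 0.228) and Slc6a2 (0.350 TPM, the next 0.0699), and was also the vindeburnol library with the most Chat (5.44 TPM) and Tph2 (83.2 TPM). Vindeburnol replicate 5 was the only vindeburnol library with Phox2a above 0 (0.0419 TPM), and vindeburnol replicate 3 the only one with Nps above 0 (0.173 TPM). With all others of the group at 0, any value above 0 passes this limit. The rate of 1 in 20 does not apply to these entries, and their passing says nothing more than that. VB-127 replicate 2 stood apart for Nps (1.51 TPM, the next 0.557) and was the VB-127 library with the most Dbh (2.36 TPM) and Slc6a2 (0.929 TPM). Untreated replicates 1 and 6 could not both pass this limit, which measures the gap to the nearest library, so it says nothing of that pair.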

How the results depend on the processing

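No member was called under any alternative in any of the 3 comparisons. The number of all genes called for vindeburnol against untreated tissue was 0, and 1 after rescaling without Bc1, with plain eBayes or with library weights. For VB-127 against untreated tissue it was 1, and 0 with a pseudocount of 0.1, no filter or the replicate block, 2 with only the 2 groups compared or without untreated replicates 1 and 6, and 3 with library weights; leaving out 1 library gave 0 to 1, with 0 without VB-127 replicates 4, 5 or 6 or untreated replicates 4 or 5. The causes were not tested. Without untreated replicates 1 and 6, Phox2a (0.0705) and Maoa (0.0341) changed sign for VB-127 against untreated tissue. Leaving out 1 library turned small differences: Hcrtr1 for vindeburnol against untreated ranged from -0.12 to 0.0925, Maoa for VB-127 against untreated from -0.12 to 0.00307, and, between the compounds, Cyb561 from -0.0224 to 0.0541 and Gal from -0.27 to 0.0155. The other member differences kept their sign under every alternative run.

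Pairs of members passing by r numbered 13, and 21 after median-ratio scaling, 3 without the 2 libraries farthest from the median and 7 without untreated replicates 1 and 6; relations with neighbouring markers numbered 1, and 3 with a pseudocount of 0.1, 7 after median-ratio scaling, 2 after rescaling without Bc1 and 0 as deviations from group means, with 0 to 3 when 1 library was left out. The 2 farthest libraries depended on the first gene of a pair. For Dbh they were untreated replicates 1 and 6, but for Maoa vindeburnol replicate 3 and untreated replicate 4. Without the 2 farthest for Dbh, its r was -0.0606 with Cyb561, -0.0775 with Maoa, 0.30 with Hcrtr1 and 0.0901 with Th. Leaving out 1 library gave -0.45 to 0.00547 for Dbh with Hcrtr1 and -0.49 to 0.0829 for Dbh with Th. Dbh with Cyb561 (r = 0.68) and with Maoa (r = 0.65) passed after median-ratio scaling, and Dbh with Tfap2b (r = -0.66; permutation adjusted p = 0.0174) without untreated replicate 1.

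Replicate numbers were not used as pairs, as the labels do not say what they share. Between groups, deviations of same-numbered libraries correlated at -0.20 to 0.11 over 16 pairs. Those of differently numbered libraries correlated at -0.17 to 0.28 over 80 pairs. These ranges cannot show whether same-numbered libraries share anything. With the replicate block Dbh was at -1.56 for vindeburnol against untreated, -1.28 for VB-127 against untreated and -0.27 between the compounds, and 0 members were called.

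TPM carries no depth, so no counting error can be set on values near 0 such as those of Slc6a2, Phox2a and Nps.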
